A study of Homo sapiens with 16 samples.

Results

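The genes described here encode the proteins of the cytosolic ribosome. They were chosen by symbol alone: every gene named RPL or RPS followed by a number, with or without the endings A, X or L, together with RPLP0, RPLP1, RPLP2 and RPSA. The rule found 80 genes, 48 of the large subunit and 32 of the small subunit, among the 12592 genes listed for the human multiple myeloma cell line KMS12PE, and the same 80 among the 14560 listed for KMS27. Among the genes it leaves out are FAU and RACK1, whose proteins also sit in or on the ribosome, and the paralogues RPL22L1, RPL26L1 and RPL7L1. Of these only FAU and RPL22L1 are described below. RPL3L and RPL10L are not listed in either table and were not analysed here.

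Both lines are plasma cell lines with the t(11;14) translocation that respond to venetoclax, a drug that blocks BCL2 and so removes a brake on cell death. Each line was measured as its parental cells and as 3 resistant clones, each grown from a single cell after high-dose venetoclax and kept in 100 nM of the drug. The clones are A, C and D of KMS12PE (replicates 1 and 3) and B5, C1 and C5 of KMS27 (replicates 1 and 2), with 2 poly-A RNA libraries for each of the 8 populations. No dose is given for parental cells, so continued drug exposure, selection and growth from a single cell cannot be told apart. Nothing in the labels says that replicates were separate cultures, so p-values measure only the spread between these libraries, which may be technical. The 3 clones of a line are all compared with the same 2 parental libraries.

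A ribosome holds about one copy of each of its proteins, so cells make them in matched amounts and degrade the surplus. Most of their mRNAs begin with a 5′ terminal oligopyrimidine (TOP) stretch, a C followed by a run of C and T, through which the kinase mTOR controls their translation, and their transcription is promoted by MYC. Plasma cells make large amounts of secreted antibody and carry many ribosomes. Free RPL5 and RPL11 bind MDM2 and so connect ribosome assembly to p53.

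The start sites of some of the members described below are shown first, to set their TOP stretches side by side. Each line gives 30 bases before the start and 20 bases from it, 5′ to 3′ on the strand of the gene, from RefSeq promoters on GRCh38.p14, and capitals mark the unbroken run of C and T that holds the start base. RPL36A lies at chrX:101390981-101391030 (plus strand), RPL39 at chrX:119791611-119791660 (minus), RPL27A at chr11:8682762-8682811 (plus), RPLP2 at chr11:809937-809986 (plus), RPS13 at chr11:17077648-17077697 (minus), RPS19 at chr19:41860225-41860274 (plus), RPS7 at chr2:3575230-3575279 (plus) and RPL31 at chr2:101002259-101002308 (plus). RPL9, at chr4:39458903-39458952 (minus), has no such run at its listed start.
RPL36A: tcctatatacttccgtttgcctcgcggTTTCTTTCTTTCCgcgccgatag
RPL39: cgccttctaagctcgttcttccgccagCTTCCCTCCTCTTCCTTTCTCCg
RPL27A: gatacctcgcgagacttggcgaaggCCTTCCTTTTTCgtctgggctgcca
RPLP2: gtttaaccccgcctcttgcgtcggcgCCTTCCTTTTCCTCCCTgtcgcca
RPS13: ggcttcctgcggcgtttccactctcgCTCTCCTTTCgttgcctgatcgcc
RPS19: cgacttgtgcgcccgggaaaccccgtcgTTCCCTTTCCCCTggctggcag
RPS7: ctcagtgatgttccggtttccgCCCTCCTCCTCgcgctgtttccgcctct
RPL31: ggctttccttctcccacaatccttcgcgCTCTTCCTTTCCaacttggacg
RPL9: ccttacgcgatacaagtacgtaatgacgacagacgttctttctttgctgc

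Promoters were matched for 64 of the 80 genes. A run of at least 5 pyrimidines held the start base in 45 of the 64, against 9.80% of all 27305 promoters of the table, and the start base was C in 73.4% of the members against 15.0% of all promoters. The letters CCGGAAG, the core bound by ETS-family factors, occurred on either strand within the 300 bases of 34.4% of the members and of 10.7% of all promoters. TATAAA was found in 7.81% of the members and 12.0% of all promoters, and CACGTG, the E-box that MYC binds, in 4.69% and 7.43%. Runs were present both in members that were higher in KMS27 clones (RPL39 and RPL36A) and in members that were lower (RPLP2, RPL27A and RPS13). RPS4X and RPL10, also called higher in clone C1, had no such run at their listed starts.

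Libraries held 5831289 to 13674426 counts in KMS12PE and 20257318 to 52615971 in KMS27, and the smallest count of a member in any library was 120. All 10 plasma cell and myeloma markers were listed in both lines, with a summed level of 3682 to 4470 CPM (counts divided by the library total and scaled up to a common total) in KMS12PE and of 6464 to 11907 in KMS27, lowest in clone C5. The red cell and stroma markers were not listed, and the summed T cell and monocyte markers reached at most 13.2 and 2.06 CPM. Levels of genes below are CPM after TMM scaling, edgeR's correction for library composition, and differences are log2 fold changes with their standard errors (SE) from edgeR's quasi-likelihood fit of the 8 libraries of a line, called at an adjusted p under 0.05 over all genes tested. Where no other tool or setting is named, a call is that of this edgeR fit without a replicate block.

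Ribosomal protein genes took 7.15% and 7.18% of all counts in the KMS12PE parental libraries 1 and 3. The shares were 7.19% and 6.53% in clone A, 6.83% and 6.16% in clone C and 6.92% and 5.99% in clone D. Replicate 1 was nearer to the parental share than replicate 3 in each clone, and replicate 3 was below both parental libraries. In KMS27 the members took 8.97% and 10.98% in parental libraries 1 and 2, 7.58% and 10.5% in B5, 11.1% and 11.5% in C1, and 8.07% and 8.66% in C5. Both C1 libraries were above and both C5 libraries below the parental pair, while the 2 B5 libraries lay far apart, the first below the pair and the second inside it.

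**Figure D1:**
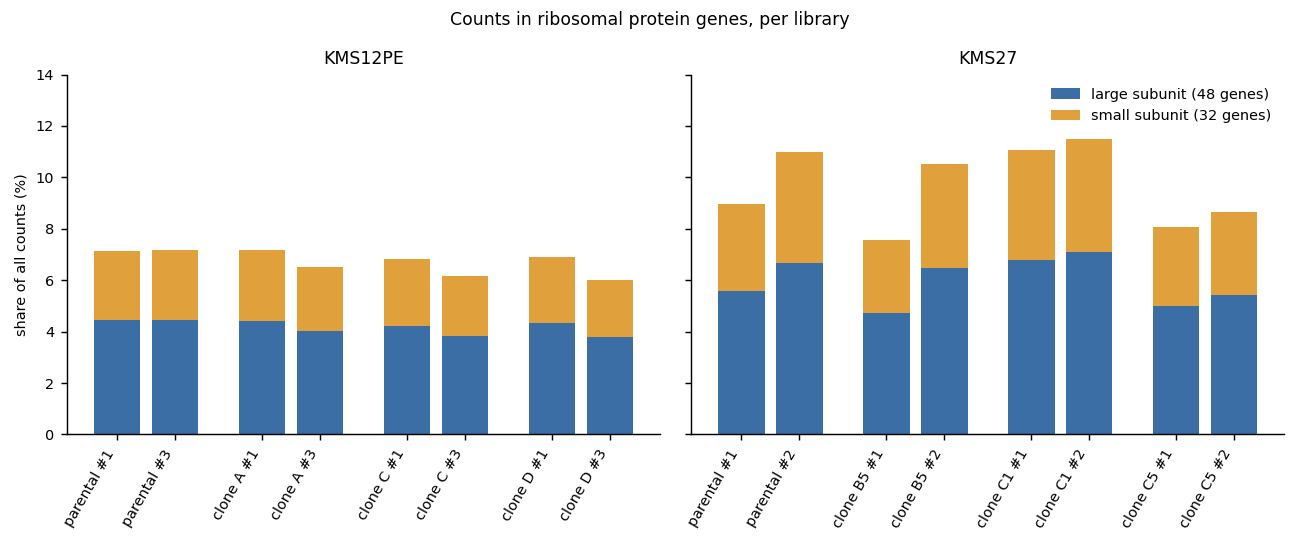
Share of all counts (%) in large subunit (blue) and small subunit (orange) genes in each of the 16 libraries; # gives the replicate number. In KMS12PE replicate 3 of each clone is the lower bar of its pair, and in KMS27 clone C1 stands highest and the 2 bars of B5 differ most.

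Per kilobase of transcript, parental levels had a median of 1033 CPM per kb in KMS12PE and 1458 in KMS27. RPS27, a small subunit protein, was highest in KMS12PE at 3599 CPM per kb, and RPS18, a protein of the head of the small subunit, in KMS27 at 5729. Low levels were found for RPL39L, the paralogue of RPL39 known mainly from male germ cells, at 31.7 and 16.6 CPM per kb, and for RPS27L, a p53-inducible paralogue of RPS27, at 5.49 and 7.66. The order of genes on this scale rests on the transcript length used, the shortest principal transcript of the annotation. That transcript has 653 bases for RPL39L and 6434 for RPS27L, and it is also long for RPL37 (7686) and RPL27A (4916). Comparisons between genes on this scale are therefore uncertain.

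Large and small subunit genes kept close to one ratio. The ratio of large to small subunit counts was 1.66 and 1.65 in the KMS12PE parental libraries, 1.61 and 1.61 in clone A, 1.60 and 1.64 in clone C and 1.69 and 1.71 in clone D. The A and C values lay below both parental values and the D values above both. Without RPS7, whose CPM was higher in A and C, the A ratios were 1.69 and 1.70 against 1.73 and 1.72 in the parental libraries, and the C ratios of 1.69 and 1.74 overlapped them. In KMS27 the ratio was 1.64 and 1.54 in the parental libraries and ran from 1.59 to 1.67 in the clones, so that all clone values but those of C5 replicate 2 and B5 replicate 1 fell inside the parental pair.

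In KMS12PE the members had medians slightly below those of all genes in all 3 clones. The median log2 fold change was -0.08 in clone A, -0.18 in clone C and -0.18 in clone D, beside medians of 0.00, -0.00 and 0.01 over all genes tested, and 68, 78 and 78 of the 80 members lay below 0. Large and small subunit medians were -0.09 and -0.05 in A, -0.18 and -0.17 in C, and -0.18 and -0.17 in D. No member was called by edgeR in clone A, where 0.212% of all genes were called higher and 0.236% lower (0.448% in all). At an unadjusted p under 0.05 there was 1 member, higher, and DESeq2 called 0 (all genes 0.762%). In clone C edgeR again called 0 members (all genes 0.904% higher, 0.880% lower, 1.78% in all), with 1 higher and 5 lower at an unadjusted p under 0.05, and DESeq2 called 1, RPS7 (all genes 2.02%). In clone D edgeR called 1 member lower, RPL31, and 0 higher (all genes 3.31% lower, 1.86% higher, 5.16% in all). At an unadjusted p under 0.05 there were 11 lower and 0 higher, and DESeq2 called RPL31, RPL24, RPS24 and RPS29 lower (all genes 4.45%).

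**Figure D2:**
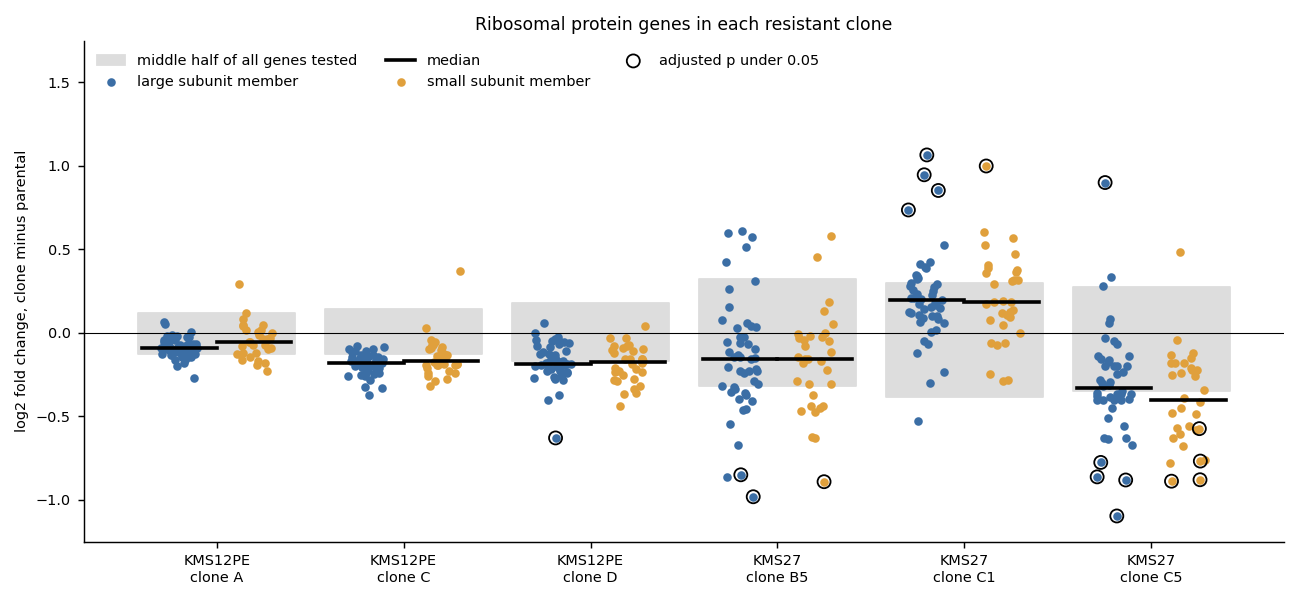
Log2 fold change (clone minus parental, vertical axis) of each large subunit (blue) and small subunit (orange) gene in the 6 clones, with medians as black bars, the range between the quartiles of all genes tested in grey, and called members ringed. The KMS12PE medians lie between -0.05 and -0.18, and the KMS27 members are above 0 as a group in C1 and below 0 in C5.

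The labels do not say that replicate numbers pair libraries. In KMS12PE same-numbered libraries deviated together, with correlations of 0.25 to 0.54 across all genes. Between a clone and the parental cells they were 0.25 to 0.32. The number was therefore also used as a block, and the calls made with it rest on that pairing. In the members the parental cells did not share the shift of the clones. Library 3 minus library 1 had a median of -0.18, -0.22 and -0.29 in A, C and D and of -0.03 in the parental cells. With the number as a block, 1 member was called in clone A (RPS7, higher), 14 in clone C (RPS7 higher and 13 lower) and 27 in clone D (all lower), all by edgeR. Of all genes, 1.85% were called higher and 1.80% lower in A (3.65% in all), 3.68% and 3.40% in C (7.08%), and 7.28% and 9.16% in D (16.4%). The 13 lower in C included RPL11, RPL41, RPL36A and RPS27, and the 27 in D included RPL3, RPL4, RPL31, RPS18 and RPS27. Without the block, both clone libraries lay below both parental libraries for 28 members in A, 54 in C and 45 in D, where 18.4%, 18.9% and 22.0% of all genes did so. Above both parental libraries lay 1 member in each clone, beside 18.4%, 19.2% and 20.8% of all genes.

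Kept apart by number, the clone libraries numbered 1 and 3 differed in the size of the shift. The median difference of the members to the parental library of the same number was -0.01 (number 1) and -0.15 (number 3) in clone A, -0.08 and -0.29 in clone C, and -0.05 and -0.32 in clone D. In each of the 3 clones all 80 members were lower in library 3 than in library 1. Their median gap was 0.18, 0.22 and 0.29, and it was 0.06 between the 2 parental libraries. Over all genes the median gap, whatever its direction, was 0.15, 0.16 and 0.21 in the clones and 0.18 in the parental pair. The number 3 libraries of the clones also had more counts (10882837 to 13674426) than their number 1 libraries (6491027 to 11512181), and the part of depth or preparation in the member shift was not tested. Without replicate 3 of clone A, C or D its median moved to 0.00, -0.06 and -0.04, and without replicate 1 to -0.17, -0.29 and -0.34. Genes with the widest gaps were RPS16 (0.44), RPS12 (0.43) and RPS26 (0.42), all in clone D.

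**Figure D3:**
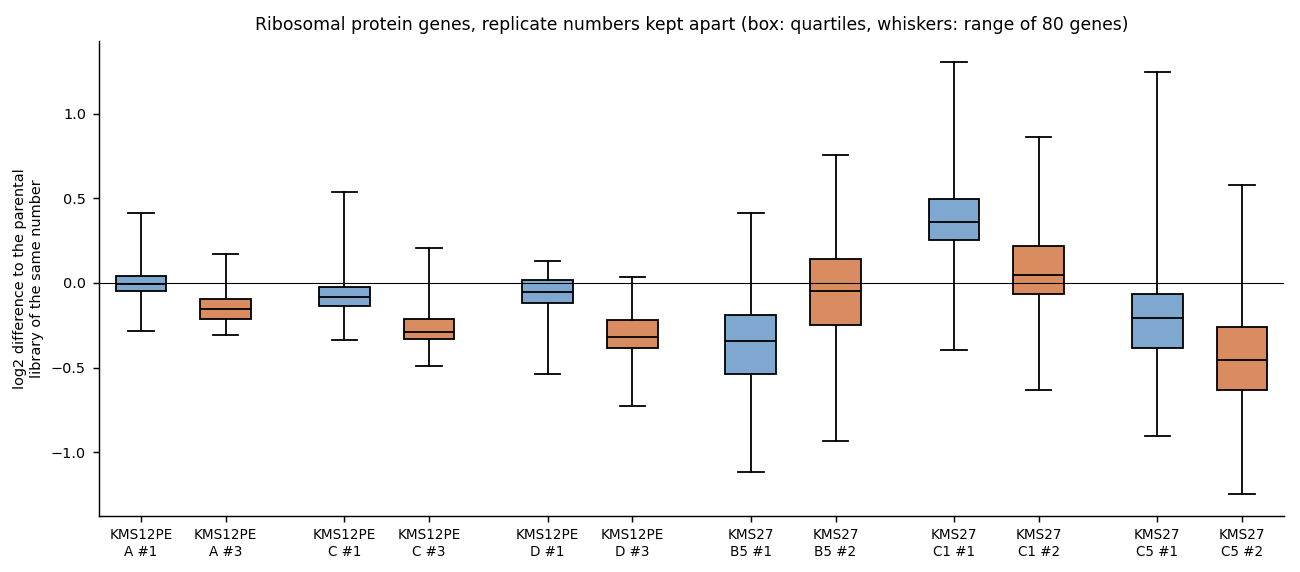
Log2 difference of the 80 members between each clone library and the parental library of the same replicate number (boxes, quartiles and median; whiskers, lowest and highest gene). In KMS12PE the number 3 boxes lie below the number 1 boxes in all 3 clones, and in KMS27 B5 number 1 and C1 number 1 differ most from their number 2 partners.

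RPL31, a protein beside the exit of the peptide tunnel, was the member that fell in KMS12PE clone D. Its level was 533 and 520 CPM in the parental libraries, 437 and 437 in A, 492 and 390 in C and 368 and 314 in D. All 6 clone libraries were below both parental libraries, and D was lowest. The log2 fold change in D was -0.63 ± 0.13 (SE; edgeR adjusted p = 0.0226), and the values of -0.27 in A and -0.26 in C were not called. With the replicate block RPL31 was also called lower in C (edgeR adjusted p = 0.0449), and not in A (0.067). Its 50 nearest other genes had a median of -0.03 in D. The call ended without D replicate 3 (adjusted p = 0.109), parental replicate 1 (0.120) or parental replicate 3 (0.102).

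RPS7, a small subunit protein that can also bind MDM2, went against the other members in clones A and C. It stood at 1072 and 1166 CPM in the parental libraries, 1428 and 1314 in A, 1553 and 1347 in C, and 1068 and 923 in D. The A and C libraries were all above the parental ones. The log2 fold changes were 0.29 ± 0.12, 0.37 ± 0.12 and -0.17 ± 0.12, none of them called alone, with edgeR adjusted p of 0.0438 (A) and 0.00395 (C) under the block. RPS7 was the only member that differed among the 3 KMS12PE clones (edgeR joint test, adjusted p = 0.0425; all genes 8.22%), a call that ended when any 1 of the 8 libraries was left out. RPS7 lies near the end of chromosome 2, and its 50 nearest other genes had medians of 0.30 in A, 0.53 in C and -0.01 in D, the same order as RPS7.

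In KMS27 the clones went different ways. B5 members had a median log2 fold change of -0.16, those of C1 0.19 and those of C5 -0.35, beside 0.00, -0.01 and -0.01 over all genes, and 62, 12 and 74 of the 80 lay below 0. The large and small subunit medians were -0.16 and -0.16, 0.20 and 0.18, and -0.33 and -0.40. In B5 3 members were called lower (all genes 10.2%) and 0 higher by edgeR, with 4 higher at an unadjusted p under 0.05 and 3 by DESeq2 (RPS4X, RPL39 and RPL36A; all genes 10.8% by edgeR, 11.4% by DESeq2, and 21.0% in either direction by edgeR). In C1 5 were called higher (all genes 11.5%) and 0 lower (all genes 10.1%, and 21.6% in either direction), with 0 lower at an unadjusted p under 0.05 and 0 by DESeq2 (all genes 11.0%). In C5 1 was called higher (all genes 10.4%) and 8 lower (9.28%, and 19.7% in either direction). As shares of the 80 members these are 3.75% in B5, 6.25% in C1, and 1.25% and 10.0% in C5, beside the shares of all genes above. DESeq2 called 9 members lower in B5 (all genes 10.8%), 7 higher in C1 (12.6%), and 20 lower and 1 higher in C5 (10.1% and 10.6%). The C5 count of lower members thus lay near the share of all genes by edgeR and above it by DESeq2.

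Replicates of B5 and of the parental cells differed widely in the members. The 2 B5 libraries differed by a median of 0.71 over the members and the 2 parental ones by 0.38, with all 80 members higher in replicate 2 in both, while the medians over all genes were 0.30 and 0.17. The gap was 0.10 in C1 and 0.16 in C5. RPL41, RPL37 and RPS20 had the widest B5 gaps, at 0.93, 0.90 and 0.90. The B5 median turned from -0.54 without replicate 2 to 0.14 without replicate 1, and was 0.02 without parental replicate 2. Without B5 replicate 1 or 2, 15 or 46 members were called in B5, 18 or 17 in C1 and 35 or 35 in C5. Of all genes 35.1% or 21.0% were then called in B5, 35.9% or 35.5% in C1 and 30.8% or 30.5% in C5. Without parental replicate 1 or 2 the median was 0.03 or 0.38 in C1 and -0.54 or -0.14 in C5. Without C1 replicate 1 or 2 the C1 median was 0.22 or 0.16, and without C5 replicate 1 or 2 the C5 median was -0.27 or -0.43. Calls of single members also ended without a parental, C1 or C5 library, as given below.

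Kept apart by number, the B5 members had a median difference of -0.34 to parental replicate 1 and -0.05 to parental replicate 2. In C1 the values were 0.36 and 0.05, and in C5 -0.21 and -0.45. C1 was therefore above and C5 below at both numbers, and the size depended on the parental library used. Short oxidative phosphorylation mRNAs, a set of small abundant transcripts, had shares of 0.774% and 0.889% in the parental libraries, 0.762% and 0.958% in B5, 0.860% and 0.891% in C1 and 0.773% and 0.824% in C5. The part of preparation in the member shifts was not tested. Both C1 libraries lay above both parental libraries for 37 members (all genes 34.1%), and both C5 libraries below them for 47 (32.2%). In B5 9 members were below (27.6%) and 1 above (28.8%), in C1 4 were below (34.0%), and in C5 3 were above (33.6%).

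The 4 members on the X chromosome rose in clone C1. RPS4X, a small subunit protein with a Y-linked partner gene, stood at 1194 and 1544 CPM in the parental libraries, 1549 and 2552 in B5, 2746 and 2729 in C1, and 1862 and 1965 in C5. All C1 and C5 libraries and both B5 libraries were above both parental ones, the lower B5 library by a small margin. Its log2 fold changes were 0.58 ± 0.24 (B5), 1.00 ± 0.24 (C1) and 0.48 ± 0.23 (C5), of which that in C1 was called (edgeR adjusted p = 0.0178). Of the large subunit genes, RPL39, a very small protein of the peptide exit tunnel, had 862 and 1180 CPM in the parental libraries, 1129 and 1994 in B5, 2126 and 2149 in C1, and 1199 and 1379 in C5. Its values were 0.61 ± 0.26, 1.07 ± 0.26 and 0.34 ± 0.26, with C1 called (edgeR adjusted p = 0.0210). RPL36A, a large subunit protein near the site where the deacylated tRNA leaves, had 562 and 718 CPM in the parental libraries, 718 and 1186 in B5, 1086 and 1227 in C1, and 695 and 862 in C5, and rose by 0.85 ± 0.24 in C1 (edgeR adjusted p = 0.0355). RPL10, a late-joining protein needed for a mature large subunit, had 1718 and 2171 CPM in the parental libraries and 3117 and 3363 in C1, a rise of 0.74 ± 0.22 (edgeR adjusted p = 0.0410), with 2032 and 2025 CPM in C5, inside the parental pair.

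The surrounding genes of the X chromosome were higher too. The other X-linked genes tested had medians of 0.56 in B5, 0.59 in C1 and 0.54 in C5, and the medians of the 50 nearest other genes of each member ran from 0.50 to 0.73, from 0.53 to 0.75 and from 0.45 to 0.70. The 4 members had medians of 0.58, 0.93 and 0.31, near, above and below that of the other X-linked genes. In KMS12PE, where the median of the same neighbours lay between -0.09 and 0.01 in the 3 clones, the X-linked members lay between -0.33 and -0.04. Each C1 call ended when parental replicate 1 was left out (adjusted p 0.142 for RPS4X, 0.154 for RPL39, 0.218 for RPL36A and 0.256 for RPL10) and when C1 replicate 1 or 2 was (0.0837 to 0.169). Those of RPL36A and RPL10 also ended without parental replicate 2 (0.0659 and 0.0736) or a C5 library (0.0663 to 0.0918), and that of RPL39 without C5 replicate 1 (0.0501).

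RPL39L was called higher in C1 and C5 and did not follow its neighbours. Its level was low, 8.995 and 12.6 CPM in the parental libraries, and reached 12.0 and 20.8 in B5, 20.5 and 21.2 in C1 and 21.5 and 18.9 in C5. All 4 libraries of C1 and C5 were above both parental libraries, and 1 B5 library was inside the parental pair. The log2 fold change was 0.60 ± 0.25 in B5 (not called), 0.95 ± 0.25 in C1 (edgeR adjusted p = 0.0270) and 0.90 ± 0.25 in C5 (edgeR adjusted p = 0.0345). Its 50 nearest other genes on chromosome 3 had medians of 0.01, -0.00 and 0.04. In KMS12PE RPL39L stood at 22.5 and 18.9 CPM in the parental cells and at 16.6 to 21.8 in the clones. Without parental replicate 1 the adjusted p was 0.171 in C1 and 0.204 in C5. The calls also ended without either C1 library (0.130 and 0.113 in C1, 0.0691 and 0.0692 in C5) or either C5 library (0.0559 in C1, 0.191 and 0.124 in C5).

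**Figure D4:**
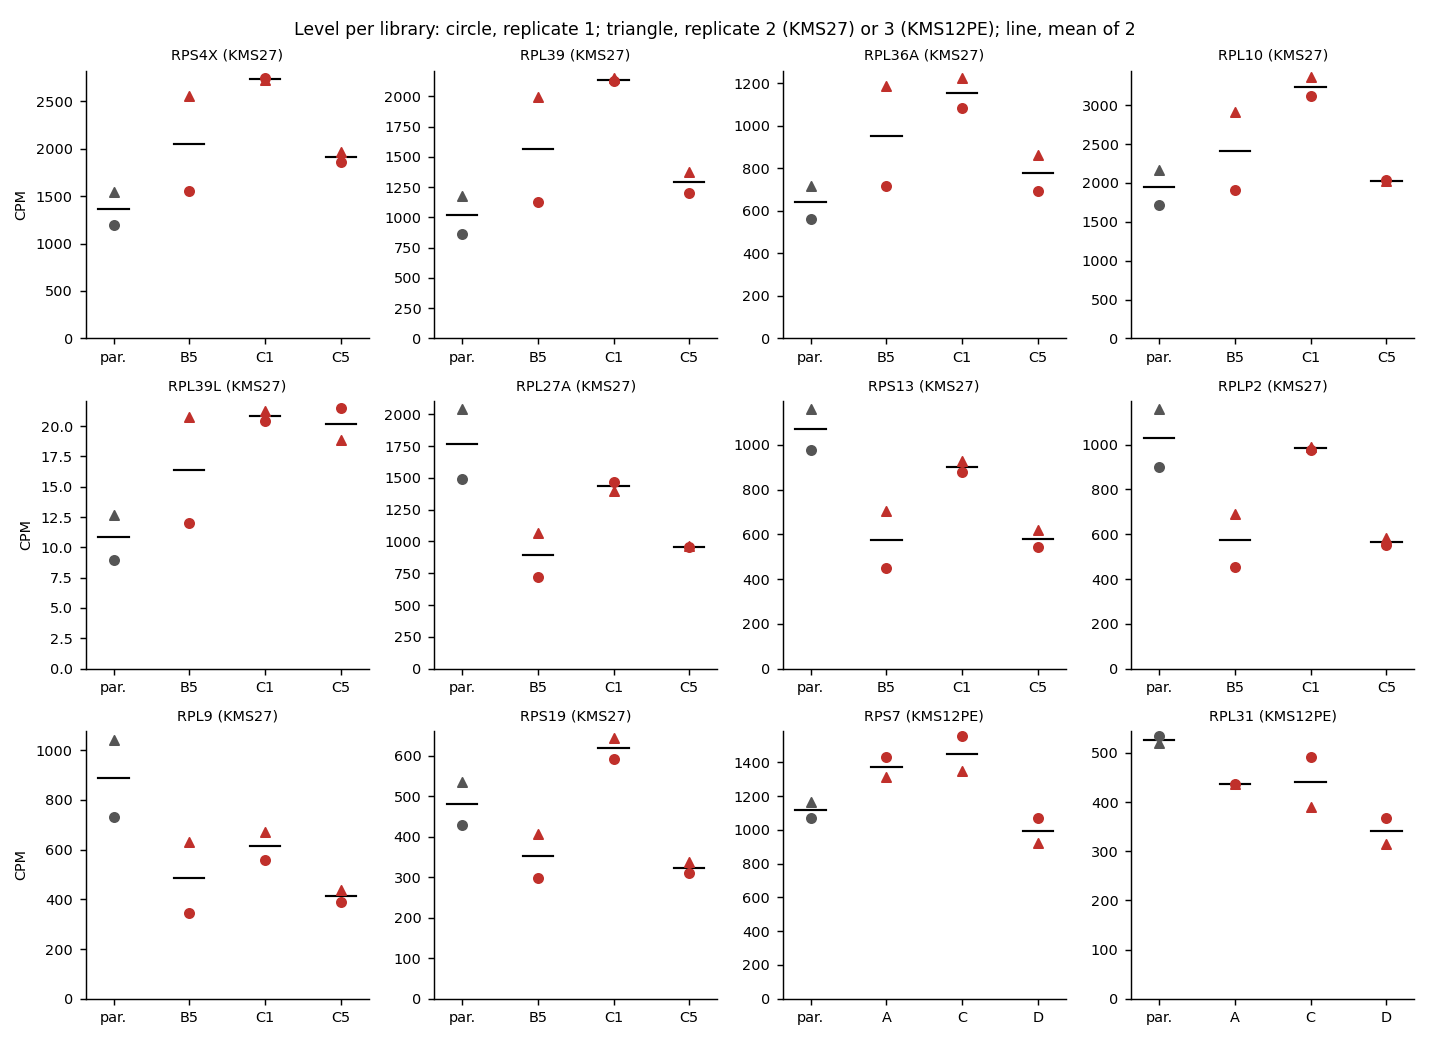
CPM in each library (vertical axis, from 0) of 10 members in KMS27 and 2 in KMS12PE, for the parental cells (grey) and the clones (red), with circles for replicate 1, triangles for replicate 2 or 3, and the mean as a line. The 4 X-linked genes and RPL39L are highest in C1 or about equal in C1 and C5, and RPL27A, RPS13, RPLP2 and RPL9 are lowest in B5 and C5.

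On chromosome 11, 3 members fell in B5 and C5. RPL27A, a large subunit protein, had 1492 and 2041 CPM in the parental libraries, 720 and 1070 in B5, 1469 and 1400 in C1 and 953 and 966 in C5. RPS13, a protein of the small subunit platform, had 976 and 1162 CPM in the parental libraries, 450 and 703 in B5, 877 and 929 in C1 and 543 and 619 in C5. RPLP2, one of the acidic proteins of the stalk that recruits elongation factors, had 901 and 1160 CPM in the parental libraries, 455 and 689 in B5, 976 and 990 in C1 and 551 and 583 in C5. For all 3 genes every B5 and C5 library was below both parental libraries. The log2 fold changes in B5 were -0.98 ± 0.22, -0.89 ± 0.21 and -0.85 ± 0.21 (edgeR adjusted p = 0.0130, 0.0170 and 0.0194). In C5 they were -0.88 ± 0.22, -0.88 ± 0.21 and -0.86 ± 0.21 (edgeR adjusted p = 0.0212, 0.0186 and 0.0190), and in C1 -0.30, -0.24 and -0.07, none called.

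Their 50 nearest other genes were lower too, with medians of -0.82, -0.78 and -0.79 in B5, -0.51, -0.58 and -0.49 in C1 and -0.43, -0.49 and -0.44 in C5 for RPL27A, RPS13 and RPLP2. In C1 the members were thus less low than their surroundings, and in C5 lower. RPS25 and RPS3, small subunit proteins encoded farther along chromosome 11, had values of -0.29 and -0.37 in B5, with neighbour medians of -0.28 and -0.20. In C5 they had -0.56 and -0.57, with both libraries below the parental pair, not called by edgeR (adjusted p = 0.144 and 0.188), while DESeq2 called RPS25 lower (0.047). Without parental replicate 2 none of the 6 calls held (adjusted p 0.0979 to 0.159). The 3 C5 calls also ended without either C5 library (0.0995 to 0.166), that of RPS13 in C5 without parental replicate 1 (0.0511), and that of RPLP2 in B5 without either C5 library (0.0522 and 0.0523).

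On chromosome 4, RPL9, a large subunit protein, fell in C5. It had 732 and 1042 CPM in the parental libraries, 344 and 631 in B5, 556 and 672 in C1 and 391 and 439 in C5, so that all 6 clone libraries were below both parental libraries. Its log2 fold changes were -0.86 ± 0.28 (B5), -0.53 ± 0.27 (C1) and -1.10 ± 0.28 (C5), of which that in C5 was called (edgeR adjusted p = 0.0237), beside neighbour medians of -0.40, -0.44 and -0.38. The counts of its pseudogenes equalled 67.5% of its own in KMS27, so reads may be split between near-identical copies, and its value is uncertain. Summed with them it had log2 ratios to the parental mean of -0.59, -0.27 and -0.82, and the pseudogenes alone -0.14, 0.16 and -0.36, with no test. RPS3A and RPL34 on the same chromosome had -0.78 and -0.56 in C5, not called by edgeR (adjusted p = 0.0702 and 0.107) and called lower by DESeq2 (0.00636 and 0.0366). The RPL9 call ended without parental replicate 2 (adjusted p = 0.148) or either C5 library (0.177 and 0.128).

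Chromosome 19 holds 12 members, and all 12 were below 0 in B5 and C5 and above 0 in C1. Those called in C5 included RPL13A (-0.78 ± 0.23), RPS16 (-0.77 ± 0.23) and RPS19 (-0.57 ± 0.18), with edgeR adjusted p of 0.0451, 0.0440 and 0.0498. RPS19, the small subunit protein most often mutated in Diamond-Blackfan anaemia, had 429 and 535 CPM in the parental libraries, 298 and 407 in B5, 592 and 643 in C1, and 312 and 336 in C5. All C1 libraries were above and all B5 and C5 libraries below the parental pair. RPL13A, which also acts outside the ribosome in the control of translation during inflammation, had 1751 and 2351 CPM in the parental libraries, 1006 and 1569 in B5, 2284 and 2466 in C1 and 1121 and 1275 in C5, so that the B5 and C5 libraries were below the parental pair and 1 C1 library was inside it. The 50 nearest other genes of RPL13A had medians of -0.36, 0.07 and -0.44. Those around RPS19 had -0.21, 0.14 and -0.11. Each of these 3 calls ended without a parental library (adjusted p 0.0663 to 0.294), a C1 library (0.0861 to 0.0904) or a C5 library (0.172 to 0.272). That of RPS19 also ended with members left out of the scaling (0.0544) or with no filter on low counts (0.0518). The 4 members of chromosome 8, where MYC also lies, had medians of 0.44 in B5, 0.47 in C1 and -0.05 in C5, beside 0.41, 0.19 and 0.16 over the other genes of that chromosome. By edgeR 0 of them were called in any clone, and by DESeq2 RPS20 was called higher in C1 (adjusted p = 0.0445).

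Across the 80 members, the log2 fold change followed that of the 50 nearest other genes in KMS27, a comparison chosen after the data had been seen. Pearson's r reached 0.86 in B5, 0.77 in C1 and 0.75 in C5 (Spearman's rho 0.79, 0.69 and 0.73). Without the 9 members on chromosomes X and 11 it was 0.78, 0.60 and 0.64 over 71 genes. These are descriptions across genes that share libraries and, in part, neighbours, and the 3 comparisons share the parental libraries. With the neighbour median taken off, the members' median was -0.15, 0.18 and -0.38, close to the values before. In KMS12PE neighbour medians spanned less, and r was 0.62, 0.57 and 0.21, with rho of 0.47, 0.07 and 0.11, where RPS7 in A and C had the highest neighbour median.

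**Figure D5:**
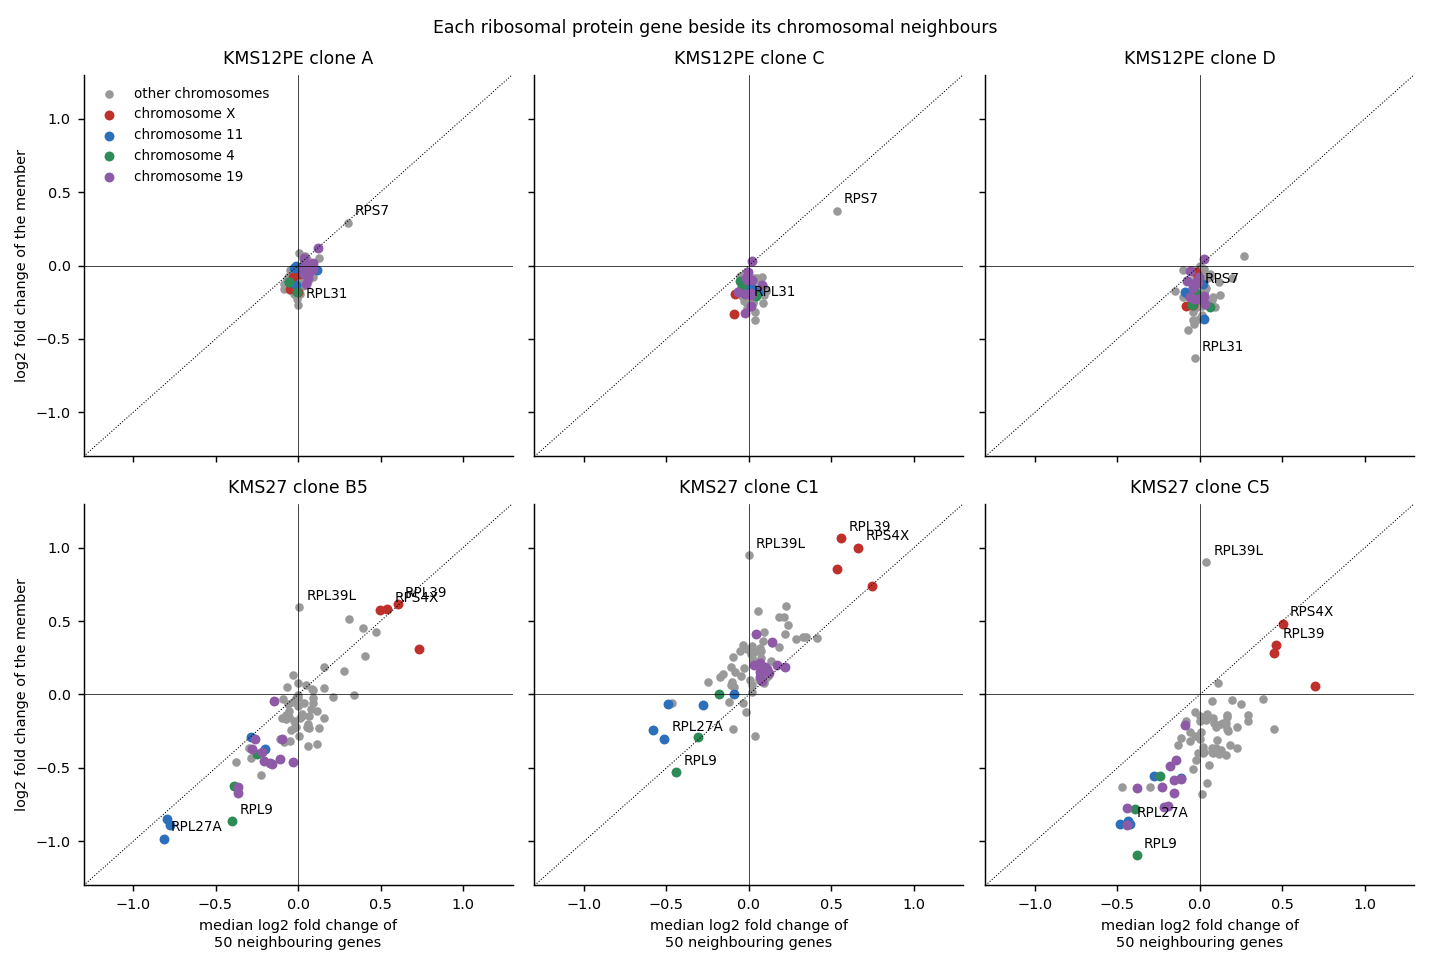
Log2 fold change of each member (vertical axis) against the median of its 50 nearest other genes tested (horizontal axis) in the 6 clones, with members on chromosomes X, 11, 4 and 19 coloured and the dotted line marking equality. In KMS27 the X-linked members lie at the upper right and the lowest chromosome 11 members at the lower left, RPL39L stands off the line, and RPS7 is the member set apart in KMS12PE clones A and C.

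Among the 3 KMS27 clones 4 members differed (edgeR joint test; all genes 13.7%): RPS19 (adjusted p = 0.0147), RPL13A (0.0318), RPS28 (0.0374) and RPLP2 (0.0399). DESeq2 called 31 members in this test (all genes 20.1%) and edgeR with the replicate block 33 (21.0%), so the count depends strongly on the fit. RPS28 had 391 and 477 CPM in the parental libraries, 263 and 379 in B5, 507 and 484 in C1 and 282 and 298 in C5. All 4 genes were lowest in B5 or C5 and higher in C1. The counts of the RPS28 pseudogene equalled 14.4% of its own, and reads may be split. The count of members that differed also depended on single libraries. It fell when a parental, C1 or C5 library was left out, and rose, as did the share of all genes called, when a B5 library was.

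No member was called with 1 sign in all 3 clones of a line by edgeR without the block. With it RPL9 was lower in all 3 KMS27 clones (edgeR adjusted p = 0.0034, 0.0431 and 0.00129 in B5, C1 and C5). The numbers were not taken as pairs in KMS27, and the share of all genes so called with the block is not given here. The RPL9 value is also uncertain: in C1 its log2 ratio was -0.27 when summed with its pseudogenes, and that of the pseudogenes alone was 0.16. By sign alone 67 members were below 0 and 1 above 0 in all 3 KMS12PE clones. The share of all genes by sign alone is not given here, and the 3 comparisons share the parental libraries. At an unadjusted p under 0.05 in each clone by edgeR there were 0 members, and DESeq2 called 0. Of all genes 0.0407% were called lower in each clone and 0.0244% higher by edgeR, which are shares of calls and not of signs. In KMS27 6 members were above 0 and 11 below 0 in all 3 clones, again by sign alone. At an unadjusted p under 0.05 in each clone 1 was higher and 0 lower, DESeq2 called 0, and 4.50% and 3.73% of all genes were called higher and lower in each clone by edgeR.

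The lines differed in 3 members. The response of KMS12PE (mean of 3 clones minus parental) minus that of KMS27 was -0.81 ± 0.23 for RPL36A, -0.79 ± 0.24 for RPS4X and -0.87 ± 0.26 for RPL39 (edgeR adjusted p = 0.0323, 0.0395 and 0.0432). Of all genes 7.70% were called in this direction, 6.45% in the other and 14.2% in either. All 3 are X-linked and were higher in the KMS27 clones, by 0.57, 0.69 and 0.67, with -0.25, -0.11 and -0.21 in KMS12PE. RPL39L had a difference of -0.92 ± 0.29 (edgeR adjusted p = 0.0545). Leaving out KMS27 parental replicate 1 ended the 3 calls (adjusted p 0.179 to 0.221), as did leaving out either KMS12PE parental library (0.0900 to 0.143), replicate 3 of a KMS12PE clone (0.0503 to 0.0737), C1 replicate 2 (0.0564 to 0.0651) or C5 replicate 2 (0.0588 to 0.0731). Those of RPS4X and RPL39 also ended without clone A replicate 1, C1 replicate 1 or C5 replicate 1 (0.0547 to 0.0653).

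Of 10 further members described for their roles whatever their result, 0 were called in any clone by edgeR or DESeq2. With the replicate block RPL11 was called lower in KMS12PE clone C and RPL3 in clone D (edgeR adjusted p = 0.0365 and 0.0383). RPL5 and RPL11, which bind MDM2, had log2 fold changes of -0.15 and 0.03 in B5, 0.12 and 0.27 in C1 and -0.29 and -0.16 in C5, and from -0.08 to -0.24 in KMS12PE. RPL22, lost in some lymphoid tumours, had -0.15, 0.25 and -0.16 in KMS27 and 0.06 in KMS12PE clone D, where it was 1 of 2 members above 0 and its neighbours had 0.27. RPS14, the gene of the 5q- syndrome, had -0.03, 0.36 and -0.26 in KMS27. RPS6, the substrate of S6 kinase, had -0.30, -0.06 and -0.48, and RPSA, also known as the laminin receptor, -0.44, 0.18 and -0.45. The stalk proteins RPLP0 and RPLP1 had -0.16 and -0.23 in B5, 0.42 and 0.35 in C1 and -0.39 and -0.36 in C5, unlike RPLP2 in B5 with -0.85. RPS27A, made as a fusion with ubiquitin, had -0.16, 0.14 and -0.18, and RPL3, which shapes the peptidyl transferase centre, -0.35, 0.17 and -0.38.

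Several paralogues had other values than their partners. RPL36AL, encoded on chromosome 14, had 140 and 175 CPM in the KMS27 parental libraries and log2 fold changes of 0.04, -0.23 and -0.36, where X-linked RPL36A had 0.57, 0.85 and 0.28. RPS27L had 45.3 and 53.4 CPM in the parental libraries and -0.14, -0.28 and -0.60 (in C5 edgeR adjusted p = 0.0501), beside 0.18, 0.47 and -0.22 for RPS27. In C5 RPS27L was called lower by DESeq2 and by edgeR with the replicate block. No difference between paralogues was tested. RPL22L1, the paralogue of RPL22 outside the symbol rule, fell by 0.47 in B5 and by 0.44 in C1 (edgeR adjusted p = 0.0254 and 0.0320).

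Companion genes on the same chromosomes were called too, and the counts of the lists below stand beside the shares of all genes, 10.8% higher and 10.2% lower in B5, 11.5% and 10.1% in C1, and 10.4% and 9.28% in C5. FAU, which encodes the small subunit protein eS30 on chromosome 11, had 408 and 542 CPM in the KMS27 parental libraries, 192 and 306 in B5, 352 and 392 in C1, and 227 and 261 in C5, and fell by 0.93 in B5 and by 0.96 in C5 (edgeR adjusted p = 0.0183 and 0.0165). Of 23 other TOP mRNAs, FAU among them, 1 rose and 5 fell in B5, 1 rose in C1 and 3 fell in C5. EEF1G and EIF3F, both on chromosome 11, fell in B5 (by 1.04 and 0.93) and in C5 (by 0.78 and 0.83). The medians of these 23 were -0.15, 0.30 and -0.23, and in KMS12PE -0.04, -0.14 and -0.16, with none of the 22 tested called.

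Translation initiation factors included 2 X-linked genes, EIF1AX and EIF2S3, that rose in all 3 KMS27 clones, by 0.76, 0.49 and 0.52 and by 0.47, 0.92 and 0.56. Of the 35 factors 2 rose and 5 fell in B5, 3 and 3 in C1, and 2 and 2 in C5, with medians of -0.01, 0.09 and -0.02. Of 62 ribosome assembly factors 3 rose and 6 fell in B5, 4 and 6 in C1, and 3 and 2 in C5, with medians of 0.04, 0.01 and 0.03. UTP14A, an X-linked assembly factor of the small subunit, rose in all 3 (0.47, 0.59 and 0.69). Of 78 mitochondrial ribosomal protein genes 2 rose and 7 fell in B5, 2 and 8 in C1, and 1 and 5 in C5, with medians of 0.04, 0.03 and -0.00.

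Genes that control ribosomal protein expression or read out ribosome stress were measured as well. MYC had 113 and 115 CPM in the KMS27 parental libraries, 50.2 and 54.6 in B5, 113 and 98.8 in C1 and 69.6 and 73.2 in C5. It fell by 1.12 in B5 and by 0.67 in C5 (edgeR adjusted p = 0.000247 and 0.00317). These 2 clones had member medians below 0, but that of B5 was 0.14 without B5 replicate 1 and 0.02 without parental replicate 2. Member medians were also below 0 in all 3 KMS12PE clones. The part of MYC in the member values was not tested. CDKN1A, the p53 target that encodes p21, rose in all 3 clones, by 0.80, 0.75 and 0.56. MDM2 rose in B5 alone among the 3 tests, by 0.77, with 0.11 and -0.12 in C1 and C5, a difference between clones that was not tested. In KMS12PE 0 of 17 surveillance and p53 genes were called in any clone, and of 21 genes that control TOP mRNAs 0 were called in A, RPTOR fell in C and MYCN in D.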

How the data were processed

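Poly-A RNA of 8 cell populations was sequenced in 16 libraries. The authors deposited 1 table of whole-number counts per gene symbol for each line. The submitters' processing notes name hg38 as the build. Aligner, counter, annotation and strandedness: not given in the sources used here. No listed gene had fewer than 4 libraries (of 8) with 5 or more counts, which was found by testing the tables. Without strand, overlapping and antisense genes cannot be told apart, and read-through symbols and pseudogenes can take reads of members.

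Each line was fitted alone with edgeR 4.0.16 in R 4.3.3 (filterByExpr, TMM, glmQLFit, glmQLFTest, 2-sided, 1 mean per population) on 12279 genes of KMS12PE and 14088 of KMS27, which held all 80 members. A joint fit of 16 libraries over 11623 shared genes tested the difference between lines. Adjusted p is Benjamini-Hochberg's, over every gene in the fit. CPM used TMM-scaled totals. The biological coefficient of variation was 11.9% and 14.3%. The fitting was tested on simulated data. Arms left with 1 library by leaving 1 out were assumed to vary like the others.

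The members, gene lists and tests were chosen with earlier results of these data known. Genes were named by a rule: the 5 largest rises and falls among called members per clone, members called in all 3 clones, up to 6 per line for differences among clones and between lines, a set given by role, the widest replicate gaps, and up to 4 called genes per companion list. FAU, RPL22L1, MYC, MDM2, RPTOR and MYCN, the other members of chromosomes 4, 8, 11 and 19 and the members called with the block were also named after their values were seen. The comparison with the 50 nearest other genes was added after seeing the data. Same-numbered libraries correlated in their deviations by 0.25 to 0.54 in KMS12PE and by 0.06 to 0.44 in KMS27, so the numbers were taken as pairs in KMS12PE only. Positions and lengths are from GENCODE on GRCh38. Other settings were RLE size factors, scaling without members, no filter, DESeq2 1.42.0, the replicate block and leaving out each library. Single-gene results of some members and companion genes are not reported here.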

Additional observations from a re-analysis of the deposited data

Results flagged for a closer look

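The mean change from parental cells to clones differed between the lines for 3 X-linked members by a test of the difference itself. The values were -0.81 for RPL36A, -0.79 for RPS4X and -0.87 for RPL39 (log2, KMS12PE minus KMS27). These are 3.75% of the 80 members, while 7.70% of all genes were called in this direction and 14.2% in either. Each of the 3 calls also ended when any of several single libraries was left out, as given above. The other X-linked genes had medians of 0.56, 0.59 and 0.54 in the KMS27 clones B5, C1 and C5. Their part in the difference was not tested.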

How the results depend on the processing

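With the replicate block, the numbers of members called were 1 in clone A, 14 in C, 27 in D, 13 in B5, 8 in C1 and 23 in C5, 9 among the KMS12PE clones, 33 among the KMS27 clones and 11 between lines, where 3.65%, 7.08%, 16.4%, 25.8%, 27.8%, 24.1%, 26.1%, 21.0% and 21.8% of all genes were called. With DESeq2 they were 1 in C, 4 in D, 12 in B5, 21 in C5, 31 among the KMS27 clones and 5 between lines (all genes 2.02%, 4.45%, 22.2%, 20.7%, 20.1% and 15.9%). Leaving out each library in turn gave 0 to 1 in D, 0 to 46 in B5, 0 to 18 in C1, 0 to 35 in C5, 0 to 0 among the KMS12PE clones, 0 to 73 among the KMS27 clones and 0 to 8 between lines. At the highest count 21.0% of all genes were called in B5, 35.9% in C1, 28.6% among the KMS27 clones and 17.1% between lines. Small subunit medians then ran from -0.15 to 0.011 (without clone A replicate 3) in A and from -0.59 to -0.13 in C5. Without immunoglobulin genes in the total, the mean member share was 7.18% in the KMS12PE parental cells and 11.6% in C1. Without the 10 most abundant other genes it was 7.53%, 12.3% and, in C5, 8.94%. The causes were not tested. In single-gene results, 1137 of 1190 values under the other settings kept their direction and side of the threshold, 2 lost a call and 51 gained one, and of 2176 leave-one-out values 104 lost and 59 gained one; none reversed. In KMS27 the correlations of same-numbered libraries were 0.06 to 0.44, all above 0 but only 3 of 6 above 0.1, so their numbers were not taken as pairs. With 2 libraries per population, differences near 0.5 on the log2 scale are often within the spread, and counts of called members depend on B5 and on the parental libraries.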
